A study of Mus musculus with 32 samples.

Results

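The late lipopolysaccharide (LPS) response of Nur77-deficient macrophages was read from 8 of the 32 RNA-seq libraries of the series, 4 from BMDM-Nur77-KO after 18 h of LPS and 4 from BMDM-Nur77-KO at 0 h. BMDM-Nur77-KO are bone marrow-derived macrophages that lack Nur77, the nuclear receptor encoded by Nr4a1. All 8 libraries came from cells of male C57Bl6/J mice aged 6 to 12 weeks, grown for 7 days in medium with 15% L929-conditioned medium, and the 18 h cells received LPS at 100 ng/ml. The deletion is in every cell of the mouse: animals with a loxP-flanked Nr4a1 were crossed with a CMV-Cre line and the Cre was bred out again, although the labels give the genotype of these samples as cre. Wild-type littermates gave the BMDM-WT libraries, labelled wt and otherwise treated alike, of which the 4 at 0 h and the 4 at 18 h were used here for comparison, together with 4 BMDM-Nur77-KO libraries at 5 h. The other libraries, at 1 h and of BMDM-WT at 5 h, entered the fit and are quoted for single genes. How many animals stand behind the 4 libraries of a group is not given in the sources used here, so the p-values measure the spread between libraries, which may be technical.

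LPS, a component of the outer membrane of Gram-negative bacteria, is sensed by TLR4 on the macrophage surface. One arm of the signal runs through MyD88 to NF-κB and AP-1 and switches on inflammatory genes within the first hours, and the other runs through TRIF and IRF3 to type I interferon, which acts back on the cells and keeps the interferon-stimulated genes on. Late in the response macrophages carry interferon products, nitric oxide and itaconate enzymes and feedback inhibitors, and have left the cell cycle. Nur77, Nor1 (Nr4a3) and Nurr1 (Nr4a2) form a small family of nuclear receptors that act without a known natural ligand, and Nr4a1 itself is switched on by LPS within the first hours.

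The 0 h libraries held 9271205 to 12816358 assigned reads and the 18 h libraries 12389801 to 15780926. Levels are given as CPM, reads per 1000000 reads of the library total scaled by its TMM factor (a correction for the make-up of each library), and 1 transcript stood for each gene. The 18 h replicate 4 stood apart: 226 genes lay more than 1 log2 unit from the mean of the other 3 libraries, against 4 to 28 genes for those, and its deviation fell with the GC content of the transcripts (Spearman rho -0.66 across genes, which are not independent). Counts are therefore given with and without it, and its part in single values was not tested. The 5 h replicate 1 stood apart in the same way, with 1168 genes. In all 8 libraries the macrophage markers were high, with a summed level of 13625 to 16204 CPM at 0 h and 11735 to 13319 CPM at 18 h for the 12 markers. Of the markers of other cells, those of fibroblasts, erythroid cells and mast cells were too low to be tested, none of 2 B cell markers was called, and 2 neutrophil markers and 1 megakaryocyte marker were lower. The 7 T and NK cell markers summed to 0.252 to 0.873 CPM at 0 h and 2.94 to 4.45 CPM at 18 h, and the dendritic cell markers are given below. In bulk RNA, fewer cells of a kind and less RNA per cell cannot be told apart.

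Nr4a1 reads were not absent in BMDM-Nur77-KO, and they rose and fell over the time course as in BMDM-WT. They stood at 4.91, 4.60, 4.43 and 6.98 CPM at 0 h, at 242, 179, 146 and 193 CPM at 1 h, at 0.109 to 0.686 CPM at 5 h and at 0.447, 0, 0.21 and 0.245 CPM at 18 h. In BMDM-WT they stood at 15.4 to 25.6 CPM at 0 h, at 483, 484, 358 and 420 CPM at 1 h, at 0.795 to 1.06 CPM at 5 h and at 0.174 to 0.475 CPM at 18 h. The BMDM-Nur77-KO libraries were all below those of BMDM-WT at 0, 1 and 5 h, and the genotypes overlapped at 18 h. Whether these reads come from a part of the gene that the deletion leaves was not tested. The genotype of the libraries was taken from the labels. Nr4a2 rose from 1.09, 1.45, 1.38 and 1.27 CPM to 3.13, 4.98, 4.34 and 6.04 CPM, with no overlap, by 1.81 ± 0.25 on the log2 scale (standard error; adjusted p = 1.9e-07, edgeR). Nr4a3 stood at a mean of 0.512 CPM at 0 h and 0.769 CPM at 18 h, and the groups overlapped (adjusted p = 0.18).

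After 18 h of LPS the transcriptome of BMDM-Nur77-KO had been rebuilt in both directions. Of 11279 genes tested, 1741 were higher than at 0 h (15.4% of those tested) and 1851 were lower (16.4%), at a Benjamini-Hochberg adjusted p under 0.05 in the edgeR quasi-likelihood test and a change above 1 on the log2 scale, a doubling or a halving. Without replicate 4 the counts were 1720 and 1854, and 1647 of the higher and 1743 of the lower genes were called in both fits. Of the 1741 higher genes, 114 held at most 3 reads in every 0 h library. Of the 1851 lower genes, 97 held at most 3 reads in every 18 h library. The former could not come out as lower, nor the latter as higher, which also holds for those in the gene lists below. The fitted rises were the larger: 491 higher genes moved by over 3 log2 units and 218 by over 5, against 339 and 61 lower genes. These sizes come from the fit with TMM factors. They include the genes at the floor, whose size depends on the constant the fit adds. The 4 libraries of each side did not overlap for 1706 of the higher and 1820 of the lower genes, where 61.3% of all tested genes showed no overlap. The count of lower genes depends on the scaling. With library totals alone, without TMM factors, 1197 genes were higher and 3093 lower, and the median change of all tested genes stood at -0.46 log2 units in place of -0.03. The medians of gene lists below are to be set beside that value of -0.03.

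The genes with the largest changes went from almost silent to abundant, or the reverse. Heatr9 had no read at 0 h and stood at 56.3, 57.4, 50.5 and 50.6 CPM at 18 h, at least 231-fold above 3 reads per library, which is the floor used for such genes. Clic5, which encodes an intracellular chloride channel protein, rose from 0.182, 0.315, 0.229 and 0.238 CPM to 603, 612, 592 and 663 CPM (log2 change 11.23 ± 0.21, adjusted p = 1.3e-27). On the other side, Rasgrp3, a guanine nucleotide exchange factor for Ras proteins, fell from 205, 220, 200 and 185 CPM to 0.715, 0.711, 0.629 and 0.98 CPM (log2 change -8.05 ± 0.14). Every library of a group shared the direction, and the groups were far apart. Egr2, an early growth response factor, fell from 178 to 186 CPM to 0.626 to 1.47 CPM. Il1rl1, the receptor of interleukin-33, fell from 30.5 to 39.1 CPM to at most 1 read in a library, at least 143-fold. Gfra2, a coreceptor of neurturin, fell at least 124-fold, and Bcl6b, a transcriptional repressor, at least 53.3-fold.

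**Figure D1:**
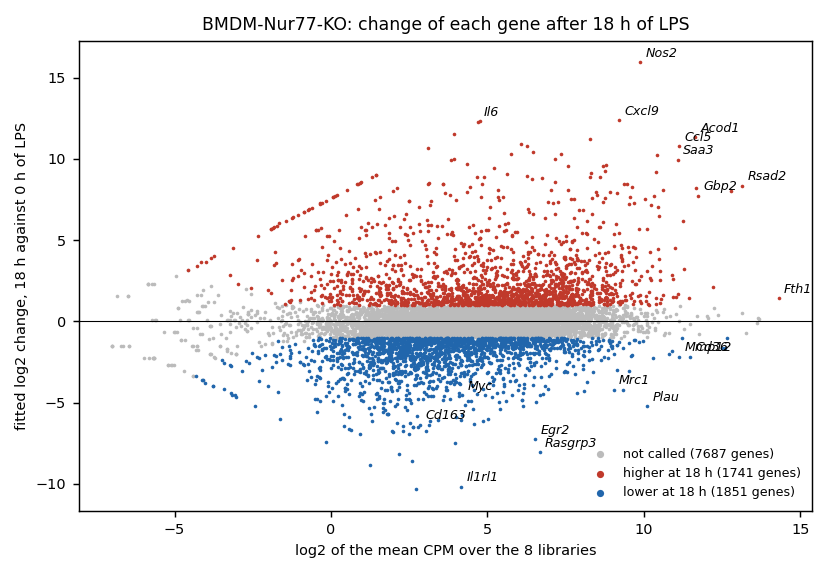
Fitted log2 change between 18 h and 0 h of LPS (vertical axis) of each tested gene of BMDM-Nur77-KO against the log2 of its mean CPM over the 8 libraries (horizontal axis), with the 1741 higher and 1851 lower genes coloured. The rises reach further from 0 than the falls, with genes near zero reads drawn at their fitted change.

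Inflammatory cytokines were among the genes above their 0 h level, although many were lower than at 5 h, as given below. Of 19 tested, 17 were higher at 18 h and none was lower. The median log2 change was 3.50 when the 6 genes near zero reads at 0 h are set at their lower bound. These 6 could not come out as lower, so their direction adds no support to the count. Il6 had no read in the 4 libraries at 0 h and stood at 47.5, 43.2, 53.3 and 64.7 CPM at 18 h, at least 225-fold higher. Il12b, the p40 chain shared by interleukin-12 and interleukin-23, went from at most 0.0909 CPM to 119, 99.6, 100.1 and 115 CPM, at least 467-fold. Il1b stood at 1.36, 2.52, 1.83 and 3.49 CPM at 0 h and at 511, 424, 414 and 380 CPM at 18 h (log2 change 7.53 ± 0.19, adjusted p = 1.1e-24). Every 18 h library was above every 0 h library for these cytokines, and for Tnf too, which began higher. Tnf went from 26.4, 32.3, 31.8 and 32.1 CPM to 460, 468, 459 and 336 CPM (log2 change 3.81 ± 0.14), with replicate 4 the lowest. Csf1 and Tgfb1 did not pass the limits.

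The chemokine ligands were led by those that draw T cells. Of 21 tested, 14 were higher and 2 lower, with a median log2 change of 1.63. Cxcl10 rose from 1.82, 1.95, 2.14 and 3.01 CPM to 2747, 2562, 2859 and 2822 CPM (log2 change 10.26 ± 0.13, adjusted p = 6.8e-32). Ccl5 stood at 4848, 4802, 4970 and 3035 CPM at 18 h, from 1.27 to 3.01 CPM, with replicate 4 the lowest. Cxcl9 went the other way in that library: 990, 944, 1026 and 1740 CPM at 18 h, from at most 0.378 CPM at 0 h. The neutrophil attractant Cxcl1, by contrast, stood at a mean of 0.171 CPM at 0 h and 0.409 CPM at 18 h, with overlapping groups (adjusted p = 0.2), and was at 19.8 CPM at 5 h. Ccl6, abundant in resting BMDMs, fell from 2043 to 2204 CPM to 415 to 453 CPM (log2 change -2.27 ± 0.07).

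Receptors for chemoattractants split evenly, 6 of 13 higher and 6 lower. Ccr2, the receptor that brings monocytes to CCL2, fell from 92.5, 92.5, 90.1 and 68.9 CPM to 6.61, 3.20, 5.46 and 6.69 CPM (log2 change -3.96 ± 0.20, adjusted p = 2.9e-17). C5ar1, the receptor of complement fragment C5a, fell from 507 to 550 CPM to 37.3 to 43.4 CPM. The receptors for formylated bacterial peptides rose instead. Fpr2 went from 0.714 to 2.02 CPM to 193, 162, 168 and 116 CPM (log2 change 6.75 ± 0.26), and Fpr1 from a mean of 1.48 to a mean of 93.7 CPM.

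Every tested member of both interferon lists rose. All 25 antiviral effectors tested were higher at 18 h, with a median log2 change of 6.61, and all 12 interferon-inducible GTPases, with a median of 7.43, where all tested genes had a median of -0.03. Rsad2, whose product viperin blocks the copying of viral RNA, went from 54.0, 46.6, 52.0 and 66.5 CPM to 16941, 16695, 17705 and 20454 CPM (log2 change 8.36 ± 0.18, adjusted p = 1.1e-26). Ifit1, which binds foreign RNA ends, rose from 13.1, 9.08, 11.6 and 13.0 CPM to 2996, 2785, 3230 and 3473 CPM (log2 change 8.07 ± 0.17). For both genes the lowest 18 h library stood far above the highest at 0 h. Irf7, the factor that amplifies interferon production, rose from 8.72 to 13.0 CPM to 2204, 2201, 2150 and 1794 CPM (log2 change 7.55 ± 0.16), and Isg15, a ubiquitin-like modifier, from 3.90 to 6.03 CPM to 1203, 1210, 1195 and 872 CPM (log2 change 7.92 ± 0.19). Replicate 4 was the lowest of the 18 h libraries for these 2 genes.

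Guanylate-binding proteins and immunity-related GTPases attack the vacuoles in which bacteria and parasites live. Gbp2 rose from 31.3, 31.9, 31.8 and 31.1 CPM to 5972, 5893, 6028 and 8873 CPM (log2 change 7.73 ± 0.34, adjusted p = 6.7e-19). Gbp5 went from 4.09, 4.54, 4.28 and 5.24 CPM to 2501, 2521, 2467 and 3222 CPM (log2 change 9.20 ± 0.26). Replicate 4 was the highest for both, and the other 3 libraries lay close together. Tgtp1 rose from 0.0764 to 0.545 CPM to 346, 347, 293 and 331 CPM. Reads of Tgtp1 and Tgtp2, and of Gbp2 and Gbp2b, may have been shared between near-identical copies, so the split within each pair is uncertain.

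Many promoters of the interferon genes carry a common element. The letters GAAANNGAA, the core of the interferon-stimulated response element, were searched on both strands from 250 bases before to 50 bases after the start of each gene, in RefSeq promoters of GRCm38.p6 that were found for 8929 of the tested genes. They were present in 12 of the 18 antiviral effectors with a promoter and in 9 of 9 GTPases, in 14.1% of the higher genes and 6.30% of the lower genes, and in 7.56% of all. The 250 bases before the start of Ifit1 (chr19:34640639-34640888, plus strand) and Gbp2 (chr3:142620413-142620662, plus strand) are shown because both genes stand for these lists. Capitals mark the match on the other strand, with 3 matches in Ifit1, of which 2 overlap.
Ifit1: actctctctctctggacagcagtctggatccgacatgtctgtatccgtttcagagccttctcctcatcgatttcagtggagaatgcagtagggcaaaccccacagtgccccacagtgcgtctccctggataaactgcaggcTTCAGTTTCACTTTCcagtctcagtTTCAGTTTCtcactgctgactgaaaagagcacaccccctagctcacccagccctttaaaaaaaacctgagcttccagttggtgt
Gbp2: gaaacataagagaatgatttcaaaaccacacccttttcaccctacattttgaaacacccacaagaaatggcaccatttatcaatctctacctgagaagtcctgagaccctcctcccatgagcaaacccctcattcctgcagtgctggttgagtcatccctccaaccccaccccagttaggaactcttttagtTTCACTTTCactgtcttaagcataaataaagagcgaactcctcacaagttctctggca

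A κB site, the element that NF-κB binds, was searched as GGGANTTTC, GGGANTTCC, GGGGNTTTC or GGGGNTTCC in the same window. It was found in 8.81% of the higher genes, 5.25% of the lower genes and 6.50% of all, and in 3 of the 14 cytokines with a promoter. One of the 3 is Il6 (chr5:30012864-30013113, plus strand), printed with its match in capitals.
Il6: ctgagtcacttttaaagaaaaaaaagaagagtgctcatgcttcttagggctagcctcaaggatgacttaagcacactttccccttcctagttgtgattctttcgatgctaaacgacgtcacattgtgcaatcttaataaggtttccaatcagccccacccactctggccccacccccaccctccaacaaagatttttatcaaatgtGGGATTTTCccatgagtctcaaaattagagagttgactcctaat
The AP-1 letters TGACTCA were in 5.68% of the higher genes, 3.92% of the lower and 3.65% of all, and in 4 of the 14 cytokines with a promoter. Il6 is one of these 4, with a match on the other strand that is not in capitals above. AAAGGTCA, the NBRE bound by Nur77 monomers, was in 0.946% of the higher genes, 0.910% of the lower and 0.862% of all. A match describes letters only, and no test was made on these shares.

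Enzymes that make nitric oxide and itaconate, the antimicrobial small molecules of activated macrophages, rose by some of the widest margins. Nos2, the inducible nitric oxide synthase, had a single read over the 4 libraries at 0 h and stood at 1892, 1984, 1921 and 1718 CPM at 18 h, at least 8089-fold higher. Acod1, which makes itaconate from cis-aconitate, rose from 1.64, 1.95, 3.06 and 3.17 CPM to 6336, 6071, 6260 and 6721 CPM (log2 change 11.33 ± 0.22, adjusted p = 3.6e-27). Both were high in all 4 libraries. The arginine transporter Slc7a2 rose from 6.11 to 10.6 CPM to 497 to 641 CPM, and Ass1, which rebuilds arginine from citrulline, from 2.29 to 3.65 CPM to 56.3 to 69.4 CPM. Arg1, the arginase that competes for the same substrate, was low throughout and fell from a mean of 1.41 CPM to at most 3 reads in a library, at least 5.72-fold. In all, 5 of the 11 genes of arginine, nitric oxide and itaconate metabolism were higher and 1 was lower.

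The cyclooxygenase genes moved in opposite directions. Ptgs2, the inducible cyclooxygenase 2, rose from 1.64, 1.89, 1.76 and 1.19 CPM to 660, 614, 814 and 998 CPM (log2 change 8.88 ± 0.26, adjusted p = 2.1e-23). Ptgs1, the constitutive enzyme, fell from 16.0, 13.6, 13.1 and 15.6 CPM to 0.894, 2.49, 1.61 and 1.47 CPM (log2 change -3.16 ± 0.22). Neither gene had overlapping groups. Ptges, the synthase that makes prostaglandin E2, rose from 1.18 to 1.67 CPM to 106, 107, 103 and 82.0 CPM. Hpgd, which breaks prostaglandins down, fell from a mean of 6.85 to 0.121 CPM. Over the 13 prostaglandin and leukotriene genes tested, 3 were higher and 7 lower, and the median was -1.05.

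Presentation to T cells rose along both routes, with a higher median for MHC class I than for class II. All 15 genes of MHC class I and peptide loading were higher, with a median of 2.88 (14 without replicate 4). Tap1, which carries peptides into the endoplasmic reticulum, rose from 37.3, 36.4, 36.2 and 43.6 CPM to 699, 733, 735 and 469 CPM (log2 change 4.10 ± 0.17, adjusted p = 9.5e-20). Nlrc5, the class I transactivator, rose from a mean of 24.8 to 369 CPM. Of 9 class II genes, 8 were higher, with a median of 1.17, but with library totals alone the count was 3. Ciita, the class II transactivator, rose from 2.91, 3.28, 2.60 and 3.41 CPM to 10.7, 15.2, 17.6 and 10.1 CPM (log2 change 2.13 ± 0.24), a clear gap at a low level, and H2-Aa from a mean of 40.8 to 91.8 CPM.

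Ligands that help or hold back T cells rose in 8 of 12 cases, with a median of 3.92, and 1 fell. Cd40 went from 3.82, 4.66, 4.13 and 5.40 CPM to 531, 568, 550 and 441 CPM (log2 change 6.85 ± 0.16, adjusted p = 1.7e-25). Cd274, which encodes the inhibitory ligand PD-L1, rose from 65.1, 65.4, 67.4 and 66.8 CPM to 4384, 4451, 4414 and 5971 CPM (log2 change 6.18 ± 0.15). Stimulating and inhibiting ligands thus stood high in the same libraries. Cd86 rose from 19.8 to 23.3 CPM to 307, 303, 300.1 and 426 CPM. Slamf1 had at most 1 read in a 0 h library and reached 38.1, 38.6, 42.2 and 44.4 CPM, at least 176-fold. Vsir, which encodes the inhibitory ligand VISTA, fell from a mean of 311 to 121 CPM. Markers of dendritic cells were near the floor at 0 h. The 3 of 6 that passed the filter on low values passed it only in groups after LPS, so their directions are not counted. Clec9a stood at 0.153 to 0.378 CPM at 0 h and at 11.0, 10.8, 10.2 and 16.4 CPM at 18 h. The summed level of the 6 markers was 1.54 to 2.37 CPM at 0 h and 19.0 to 24.0 CPM at 18 h, small beside the macrophage markers. Their part in the rise of the ligands was not tested.

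Components that sense LPS were higher in part. Of 18, 9 were higher and none was lower (6 and 1 with library totals alone), with a median of 1.06. Tlr4 itself stood at 244, 187, 205 and 131 CPM at 0 h and 123, 103, 142 and 176 CPM at 18 h, and the groups overlapped. Its change of -0.49 ± 0.20 log2 units (adjusted p = 0.029) was under the limit of 1. Tlr9, the sensor of bacterial DNA, rose from 19.4, 23.5, 18.0 and 25.4 CPM to 313, 365, 328 and 306 CPM (log2 change 3.93 ± 0.15, adjusted p = 1.3e-20), with no library in between.

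Feedback inhibitors were mostly higher. Of 20 feedback inhibitors, 16 were higher and 2 lower, with a median of 2.02. Socs3, which dampens cytokine receptors that signal through STAT3, rose from 0.182 to 0.567 CPM to 189, 173, 195 and 129 CPM (log2 change 8.78 ± 0.29, adjusted p = 4.3e-22). Nfkbia, the inhibitor that holds NF-κB in the cytoplasm, rose from 28.7, 32.5, 31.0 and 35.5 CPM to 367, 373, 390 and 353 CPM (log2 change 3.54 ± 0.08). Nfkbia was even across the 4 libraries of each side. Socs1 was uneven, at 41.6, 42.4, 62.5 and 16.5 CPM, all far above the 0 h libraries, which held at most 3 reads each (at least 175-fold). Dusp4 and Dusp5, phosphatases that act on MAP kinases, fell from means of 43.8 and 13.6 CPM to 4.72 and 1.58 CPM.

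AP-1 factors, dimers of the Jun, Fos, ATF, BATF and Maf families, moved one by one. Of 20, 7 were higher (4 with library totals alone) and 3 lower. Batf rose from 1.54, 2.21, 1.83 and 2.06 CPM to 84.0, 94.6, 89.7 and 95.5 CPM (log2 change 5.55 ± 0.16, adjusted p = 3.3e-23). Fosl2 fell from 61.7, 68.0, 65.5 and 60.7 CPM to 7.77, 5.34, 6.29 and 4.90 CPM (log2 change -3.40 ± 0.13). Neither pair of groups overlapped. Junb rose by 1.24 ± 0.20 log2 units, to 178, 183, 234 and 106 CPM, and was uneven at 18 h. Fosb fell at least 15.9-fold from a mean of 3.94 CPM. Among other nuclear receptors, Pparg, which drives lipid uptake and alternative activation, fell from 62.5, 51.7, 58.0 and 57.2 CPM to 6.43, 7.47, 5.39 and 7.76 CPM (log2 change -3.09 ± 0.11).

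Metabolic genes changed at points rather than throughout. Of 18 genes of glycolysis and HIF targets, 7 were higher and none lower. Pfkfb3, whose product makes the activator of phosphofructokinase, rose from 71.6, 69.7, 66.5 and 71.6 CPM to 687, 690, 644 and 652 CPM (log2 change 3.26 ± 0.07, adjusted p = 5.2e-26). Ldha, which makes lactate, stood at 495 to 559 CPM at 0 h and 742 to 881 CPM at 18 h, without overlap, and its change of 0.66 ± 0.10 was under the limit. Of 16 genes of the tricarboxylic acid cycle none was higher and 5 were lower, among them the isocitrate dehydrogenases Idh2 (39.8 to 48.2 CPM at 0 h, 8.74 to 10.3 CPM at 18 h, log2 change -2.18 ± 0.10) and Idh1 (276 to 316 CPM at 0 h, 86.0 to 102 CPM at 18 h, log2 change -1.64 ± 0.08). Idh3a, Fh1 and Mdh1 were the other 3, while Idh3b and Idh3g, which are not on the list, were not called. Of 24 nuclear-encoded genes of the respiratory chain, 2 were higher, Cycs and Cox5a, and the median was -0.03.

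Among genes of cholesterol synthesis, more fell than rose. Of 19 tested, 7 were lower and 2 higher, with a median of -0.57. Sqle, squalene epoxidase, fell from 56.3, 43.8, 47.6 and 39.0 CPM to 13.6, 11.6, 12.0 and 11.3 CPM (log2 change -1.94 ± 0.12, adjusted p = 4.2e-15). The calls of the 2 higher genes were lost with library totals alone. Nr1h3, which encodes the oxysterol receptor LXRα, rose from 7.27 to 11.2 CPM to 113, 119, 108 and 71.0 CPM (log2 change 3.52 ± 0.20). Among its known targets, Abca1 stood at a mean of 805 CPM at 0 h and 523 CPM at 18 h and Abcg1 at 348 and 608 CPM, both within the limit of 1 log2 unit.

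Genes of iron handling moved both ways. Fth1, with the highest level per transcript length of all genes at 18 h (mean 17596 RPKM, reads per kilobase of transcript and 1000000 reads) and encoding the ferritin heavy chain, rose from 10476, 10804, 11020 and 11243 CPM to 28078, 28735, 28885 and 32681 CPM (log2 change 1.44 ± 0.08, adjusted p = 5.9e-17; 0.99 with library totals alone, under the limit). Tfrc, the transferrin receptor that brings iron in, fell from 502, 381, 445 and 296 CPM to 39.7, 38.0, 48.1 and 47.8 CPM (log2 change -3.22 ± 0.16). Neither gene had overlapping groups. Hmox1, heme oxygenase 1, rose from 401 to 443 CPM to 2678, 2597, 2671 and 2085 CPM (log2 change 2.57 ± 0.13). Ftl1, the light chain, stood at 3234 to 4680 CPM at 0 h and at 5353, 5432, 5480 and 1906 CPM at 18 h, where replicate 4 alone was below the 0 h libraries (log2 change 0.22, adjusted p = 0.57). Of 9 genes of iron handling 3 were higher, Fth1 and the metal ion transporters Slc11a1 and Slc11a2, of which Slc11a2 carries iron into the cytosol, and 2 were lower, Tfrc and the ferrireductase Steap3. With library totals alone Slc11a2 was the 1 higher gene. Of 16 genes of oxidative stress, NRF2 targets and metallothioneins 7 were higher and 1 lower. Of 17 genes of endoplasmic reticulum stress and the amino acid response, 8 were higher, such as Trib3, an inhibitor of Akt, from 1.82 to 3.59 CPM to 14.5 to 25.6 CPM.

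Uptake receptors moved both ways. Of 18 scavenger, phagocytic and Fc receptors, 7 were higher (4 with library totals alone) and 6 lower. Mrc1, the mannose receptor, fell from 1195, 1004, 938 and 833 CPM to 47.6, 48.9, 49.9 and 68.1 CPM (log2 change -4.21 ± 0.14, adjusted p = 4.0e-22). Cd163, which takes up haemoglobin with haptoglobin, fell from 13.3 to 15.2 CPM to 0.357, 0.178, 0 and 0.163 CPM (log2 change -6.35 ± 0.27), and Cd36 from 3810 to 5201 CPM to 907 to 1254 CPM. These are receptors of resting or alternatively activated macrophages, and no 18 h library reached a 0 h library. Marco, a scavenger receptor for bacteria, rose from 2.00, 2.77, 2.45 and 3.49 CPM to 126, 115, 105 and 135 CPM (log2 change 5.48 ± 0.19), and Clec4e, the Mincle receptor for mycobacterial glycolipids, from a mean of 7.25 to 1509 CPM. Of the macrophage markers, Adgre1 (F4/80) rose from 909 to 1067 CPM to 2168 to 3260 CPM, Itgam (CD11b) fell from 1081 to 1163 CPM to 453 to 555 CPM, and Cd68 stood at a mean of 1410 and 1358 CPM.

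Some acute-phase and complement genes rose. Of 10 acute-phase and antimicrobial proteins 6 were higher and none lower, with a median of 2.84 when the 2 genes near zero reads are set at their bound. Saa3, an acute-phase apolipoprotein, rose from 4.72, 3.78, 5.20 and 3.65 CPM to 4716, 4564, 4313 and 3684 CPM (log2 change 9.96 ± 0.15, adjusted p = 1.2e-29). Complement C3 rose from 27.6, 31.1, 31.7 and 35.7 CPM to 2900, 3021, 2667 and 2815 CPM (log2 change 6.50 ± 0.13), and Cfb, the factor B of the alternative pathway, from 1.27 to 1.61 CPM to 960, 924, 831 and 726 CPM (log2 change 9.27 ± 0.20). Both were higher in every 18 h library than in any at 0 h, and they were the 2 complement genes called higher of 7 tested. The C1q genes and Cfp, which encodes properdin, were not called. Among 18 matrix proteases and coagulation factors, 8 were higher and 8 lower. Plau, urokinase, fell from 1991, 2177, 2133 and 2208 CPM to 56.8, 64.6, 55.3 and 53.6 CPM (log2 change -5.21 ± 0.11), while Mmp14, a membrane-bound collagenase, rose from 5.72 to 10.5 CPM to 434 to 469 CPM. Of 16 genes of inflammasomes and lytic cell death 10 were higher, among them Casp1, Casp4 and Gsdmd, and 1 was lower, and of 22 lysosomal genes 5 were higher and 2 lower (2 and 7 with library totals alone).

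Genes of proliferation fell. Of 27 genes of DNA replication, 22 were lower and 1 higher, with a median of -1.96, and of 23 genes of mitosis, 22 were lower and 1 higher, with a median of -3.10. Rrm2, the ribonucleotide reductase subunit that supplies building blocks for DNA, fell from 39.4, 51.3, 44.0 and 45.9 CPM to 1.07, 1.69, 0.699 and 0.898 CPM (log2 change -5.39 ± 0.16, adjusted p = 3.1e-23). Top2a, the topoisomerase of dividing cells, fell from 130, 138, 109 and 102 CPM to 6.79, 8.00, 7.27 and 10.1 CPM (log2 change -3.89 ± 0.14), and Cdk1 from 39.1 to 52.2 CPM to 5.34 to 6.43 CPM. No 18 h library overlapped a 0 h library for these genes. Mki67 fell less, from 149, 152, 107 and 114 CPM to 44.6, 49.1, 43.4 and 81.7 CPM (log2 change -1.25 ± 0.21).

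A single gene rose in each of these lists. Ccne1, cyclin E1, went from 8.18, 10.2, 10.9 and 9.04 CPM to 44.3, 47.7, 49.0 and 48.7 CPM (log2 change 2.30 ± 0.11, adjusted p = 7.6e-18), and Tpx2, a spindle assembly factor, from 41.5, 45.3, 37.2 and 42.1 CPM to 253, 257, 271 and 397 CPM (log2 change 2.83 ± 0.15). Each was higher in all 4 libraries, while 22 members of its list were lower. Ccnd2, cyclin D2, rose from 25.1 to 31.5 CPM to 242 to 281 CPM (log2 change 3.23 ± 0.08). Of 14 genes of ribosome biogenesis 9 were lower and none higher, with Myc, the factor that drives it, from 30.3 to 38.6 CPM to 0.979 to 2.12 CPM (log2 change -4.56 ± 0.15).

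The elements known from cell cycle promoters were searched in the same window and build. The E2F letters TTTGGCGC or TTTCGCGC stood in 7 of the 21 replication genes with a promoter, in 2.59% of the lower genes, 1.31% of the higher and 1.77% of all. The CHR letters TTTGAA, shorter and so more common by chance, stood in 13 of the 18 mitotic genes with a promoter, in 15.2% of the lower genes, 12.4% of the higher and 12.3% of all. Mcm5, a subunit of the replicative helicase that fell by 2.20 ± 0.16 log2 units (chr8:75109259-75109508, plus strand, 2 overlapping E2F matches in capitals), and Cdk1 (chr10:69352913-69353162, minus strand, 2 CHR matches in capitals) are shown as examples of each list.
Mcm5: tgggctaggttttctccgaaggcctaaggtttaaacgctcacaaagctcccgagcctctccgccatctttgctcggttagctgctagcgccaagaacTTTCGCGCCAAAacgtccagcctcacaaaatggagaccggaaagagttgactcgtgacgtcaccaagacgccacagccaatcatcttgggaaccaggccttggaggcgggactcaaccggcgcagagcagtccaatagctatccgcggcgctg
Cdk1: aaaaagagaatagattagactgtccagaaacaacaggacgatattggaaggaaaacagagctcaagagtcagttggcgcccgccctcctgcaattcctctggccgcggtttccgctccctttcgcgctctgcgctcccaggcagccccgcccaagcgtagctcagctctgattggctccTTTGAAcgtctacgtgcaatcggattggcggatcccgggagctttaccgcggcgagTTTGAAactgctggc

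**Figure D2:**
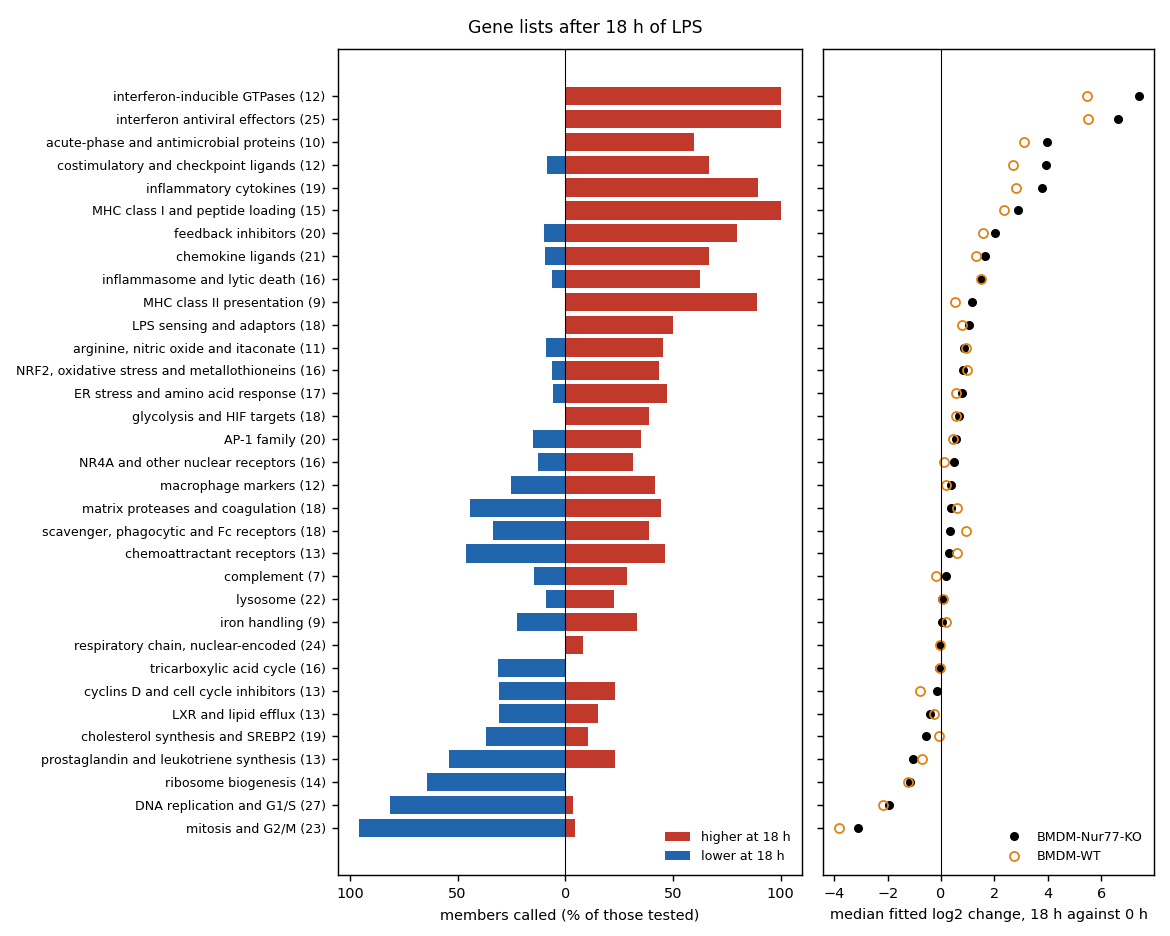
Left, share of the tested members of each gene list that were higher (right of 0) or lower (left of 0) in BMDM-Nur77-KO at 18 h than at 0 h, with the number tested in parentheses; right, the median fitted log2 change of each list in BMDM-Nur77-KO (filled) and BMDM-WT (open). The interferon lists lie at the top, with medians of 7.43 and 6.61 in BMDM-Nur77-KO, and mitosis at the bottom, with -3.10.

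**Figure D3:**
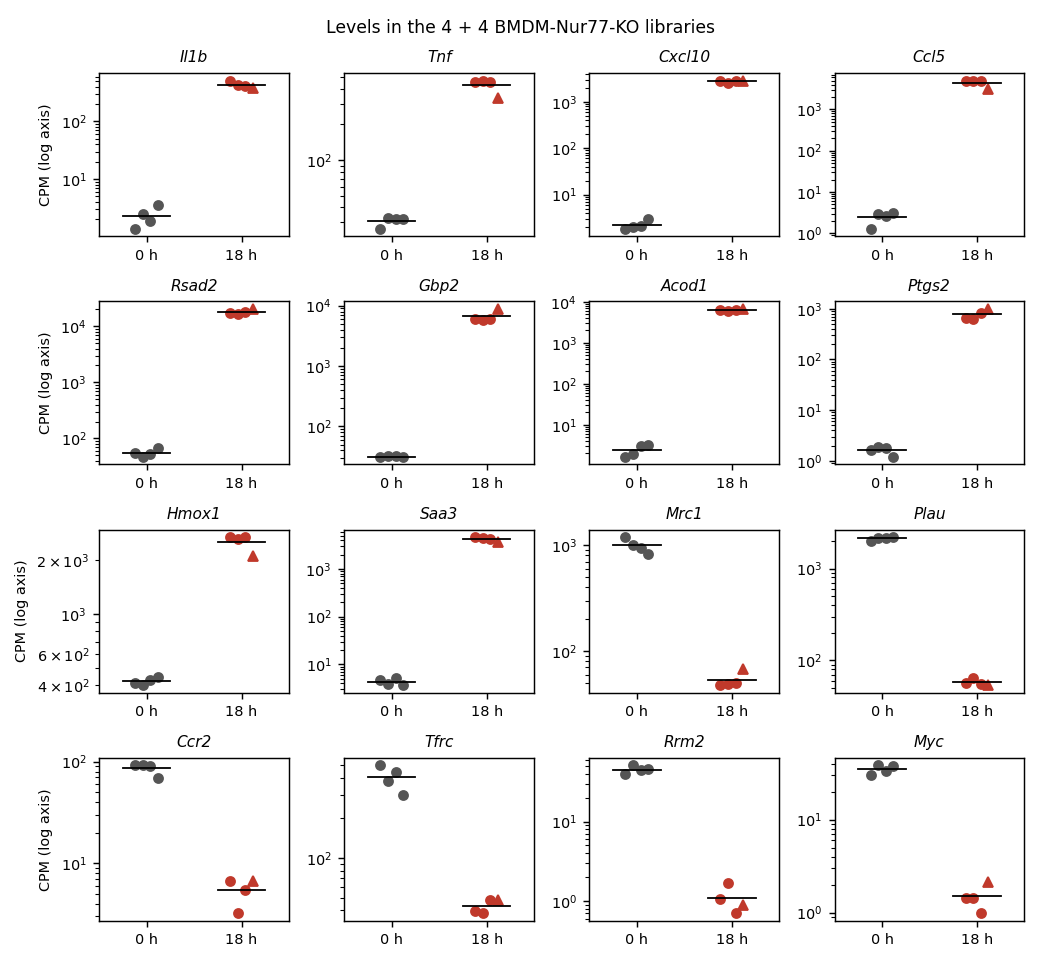
Levels in CPM (log axes) of selected genes in each of the 4 BMDM-Nur77-KO libraries at 0 h and the 4 at 18 h, 1 point a library, with 18 h replicate 4 as a triangle and the mean as a line. The groups do not overlap for the genes that were called, and replicate 4 lies at the edge of its group for several, such as Gbp2 at 8873 CPM and Tnf at 336 CPM.

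Leaving out 18 h replicate 4 changed the count of called members in 12 of 38 lists, by 1 gene at a time. The counts of the antiviral effectors (25), the GTPases (12) and mitosis (22) stayed the same. Trim69, an interferon-inducible gene beside B2m on chromosome 2, showed the sharpest break in that library, at 0.894, 2.22, 0.42 and 52.3 CPM, and was 18.6 CPM in 5 h replicate 4 against at most 0.544 CPM in the other 5 h libraries. No direction is drawn from it.

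The 18 h state was compared with that at 5 h, again in BMDM-Nur77-KO, to tell what was still rising from what had passed its peak. Of the tested genes, 1611 were higher at 18 h than at 5 h (14.3%) and 1611 were lower (14.3%), at the same limits. Without 18 h replicate 4 the counts were 1709 and 1737, without 5 h replicate 1 they were 1563 and 1513, and with library totals alone 2056 and 1311. With the GC trend of each library removed they were 1425 and 1611. Both comparisons share the 18 h libraries and are not independent. Of the 1741 genes higher at 18 h than at 0 h, the highest mean of the 4 times was at 18 h for 1115, at 5 h for 583 and at 1 h for 43. Of the 1851 lower genes, the lowest mean was at 18 h for 1473. Both sets were chosen on the 18 h libraries, which favours such a mean at 18 h and forbids it at 0 h. These counts therefore describe the sets and are not a test.

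Many cytokines and most chemokine ligands were lower at 18 h than at 5 h. Of 19 cytokines 10 were lower, none was higher and 9 were not called, and of 21 chemokine ligands 15 were lower, 1 was higher and 5 were not called. Il1b was at 2020, 1984, 2253 and 2172 CPM at 5 h, above the 380 to 511 CPM at 18 h (log2 change -2.29), and Il6 at 498, 331, 300 and 301 CPM, above 43.2 to 64.7 CPM (log2 change -2.78). Cxcl10 had a mean of 6686 CPM at 5 h and 2747 CPM at 18 h (log2 change -1.28), all 4 libraries lower. Olr1, a receptor for oxidised LDL, fell from a mean of 365 CPM at 5 h to 5.93 CPM (log2 change -5.94), and F3, tissue factor, from 42.3 to 0.434 CPM, below its 0 h mean of 8.25 CPM.

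Other genes were higher at 18 h than at 5 h. Nos2 was at 780, 933, 976 and 976 CPM at 5 h and at 1718 to 1984 CPM at 18 h (log2 change 1.04), and Irf7 went from a mean of 504 to 2087 CPM (log2 change 2.05). Saa3 rose from 255 to 296 CPM at 5 h to 3684 to 4716 CPM (log2 change 4.01), Clic5 from 14.3 to 20.7 CPM to 592 to 663 CPM (log2 change 5.14) and Tlr9 from 11.2 to 20.4 CPM to 306 to 365 CPM (log2 change 4.24). For each of these the lowest 18 h library lay above the highest 5 h library. The lists of some of these genes went both ways. Of 25 antiviral effectors 7 were higher and 3 lower than at 5 h, with Ifit1 at a mean of 7064 CPM at 5 h and 3121 CPM at 18 h (log2 change -1.18). Of 12 GTPases 1 was higher and 1 lower, and of 11 genes of arginine, nitric oxide and itaconate 2 were higher and 3 lower. Without 5 h replicate 1 the counts were 6 and 2 for the antiviral effectors, 1 and 0 for the GTPases and 1 and 3 for the arginine list. Rsad2 stood at a mean of 23017 CPM at 5 h and 17949 CPM at 18 h and Acod1 at 8661 and 6347 CPM, both within the limit of 1 log2 unit. Of 15 MHC class I genes, 9 were higher at 18 h than at 5 h and none lower (6 without 5 h replicate 1, 4 with the GC trend of each library removed).

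Some genes had a lower mean at 5 h than at 0 h and then rose above the start. The fall from 0 h to 5 h was not tested. Hmox1 stood at a mean of 421 CPM at 0 h, 184 CPM at 5 h and 2508 CPM at 18 h. Gdf15, a stress-induced cytokine of the TGFβ family, stood at 4.13, 0.351 and 33.5 CPM after a mean of 41.6 CPM at 1 h, Trib3 at 2.67, 0.478 and 21.9 CPM and Per2, a component of the circadian clock, at 2.07, 0.364 and 12.7 CPM. Each was called higher at 18 h against 0 h and against 5 h. Fcgr2b, the inhibitory Fc receptor, had its highest mean of these times at 5 h, with 78.1 CPM at 0 h, 336 CPM at 5 h and 94.4 CPM at 18 h (log2 change from 5 h -1.83).

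**Figure D4:**
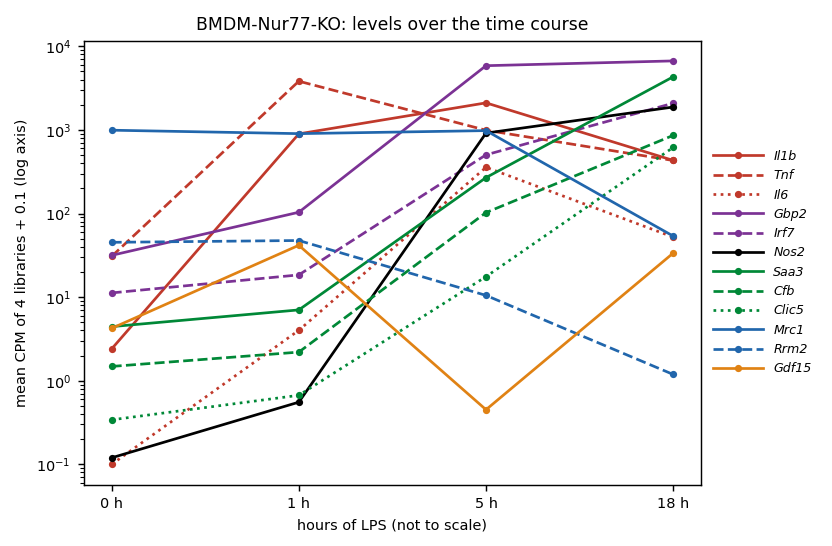
Mean CPM of 4 BMDM-Nur77-KO libraries plus 0.1 (log axis) of selected genes at 0, 1, 5 and 18 h of LPS (times not to scale). Il1b, Il6 and Tnf lie below their earlier peaks at 18 h, while Nos2, Saa3 and Clic5 are at their highest.

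The response to 18 h of LPS was then set beside that of BMDM-WT, which shares no library with it. Most of it was common. Of the 1741 genes higher in BMDM-Nur77-KO, 1362 (78.2%) were also called higher in BMDM-WT, which is 92.0% of the 1481 called there (13.1% of those tested), and of the 1851 lower genes, 1429 (77.2%) were also lower, 88.5% of 1614 (14.3%). The test of the difference between both responses called 428 genes with a larger log2 change in BMDM-Nur77-KO (3.79% of those tested) and 283 with a smaller one (2.51%), at an adjusted p under 0.05 and a difference above 0.58 log2 units. Larger means more positive, whether the gene rose more or fell less. The counts were 481 and 330 without 18 h replicate 4, and 340 and 393 with library totals alone, where the smaller responses were the more numerous. With the GC trend of each library removed they were 526 and 312. A larger change can come from a higher level at 18 h or a lower one at 0 h. Of the 428 genes, 353 had a higher level than BMDM-WT at 18 h (11.7% of all tested) and 141 a lower level at 0 h (6.38% of all), at an adjusted p under 0.05 with no limit on size. The 428 genes were chosen on these same libraries, which favours both kinds, so the shares are not a test.

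The interferon-inducible GTPases differed between the genotypes. All 12 had a larger response in BMDM-Nur77-KO, also with library totals alone, and 18 of 25 antiviral effectors did, with none smaller. Gbp5 was at 1040, 1150, 1256 and 1117 CPM in BMDM-WT at 18 h against 2467 to 3222 CPM in BMDM-Nur77-KO, and at a mean of 12.8 against 4.54 CPM at 0 h (difference of the log2 change 2.72 ± 0.29, adjusted p = 1.4e-07). Gbp2 differed by 2.39 ± 0.37, Irf7 by 1.19 ± 0.18 and Ifit1 by 1.29 ± 0.19. For Gbp2, Gbp5 and Ifit1 BMDM-Nur77-KO was lower at 0 h and higher at 18 h, while Irf7 was lower at 0 h and its 18 h levels were not called different (adjusted p = 0.10). Cxcl9 differed by 5.07 ± 0.98 and rests on 0 h levels of few reads, with means of 0.202 CPM in BMDM-Nur77-KO and 3.46 CPM in BMDM-WT.

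A part of the inflammatory genes had a larger response in the knockout. Ptgs2 was at 81.6, 92.6, 130 and 94.2 CPM in BMDM-WT at 18 h against 614 to 998 CPM in BMDM-Nur77-KO, with means of 1.68 and 1.62 CPM at 0 h (difference 3.03 ± 0.37, adjusted p = 9.0e-07). Il1b was at 165 to 186 CPM against 380 to 511 CPM (difference 1.98 ± 0.25) and Tnf at 253 to 294 CPM against 336 to 468 CPM (difference 1.04 ± 0.18). All BMDM-Nur77-KO libraries were above all BMDM-WT libraries at 18 h for these genes. Of the 19 cytokines, 8 had a larger response, none a smaller one and 11 were not called different. Only 12 of the 19 were above 3 reads in at least 1 library of each genotype at 0 h, and all 8 were among these. For the remaining cytokines a difference of the responses cannot be judged. Il6 stood at 3.19 to 6.25 CPM in BMDM-WT at 18 h against 43.2 to 64.7 CPM, and Nos2 at 615 to 693 CPM against 1718 to 1984 CPM, but both were at the floor at 0 h in both genotypes, so a difference of their responses cannot be read from the fit. Cd40 (1.34), Cd86 (1.32), Cd274 (1.01) and Ciita (1.99) also had a larger response. Ciita was not called in BMDM-WT, with a mean of 4.44 CPM at 18 h and 4.06 CPM at 0 h.

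Cell cycle genes differed in a few members. The median fall of mitotic genes was -3.84 in BMDM-WT and -3.10 in BMDM-Nur77-KO, and 5 of 23 members differed. Ccne1 stood at 11.9, 14.3, 14.6 and 14.0 CPM in BMDM-WT at 18 h, near the 0 h mean of 11.5 CPM, against 44.3 to 49.0 CPM in BMDM-Nur77-KO (difference 2.06 ± 0.16, adjusted p = 1.2e-10). Ccnd2 was at 71.1 to 80.1 CPM against 242 to 281 CPM (difference 1.82 ± 0.11). Both cyclins separated the genotypes in every 18 h library.

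Some genes of cholesterol synthesis and some receptors had a smaller response in the knockout. Of 19 cholesterol genes, 8 had a smaller response and none a larger one (4 without BMDM-Nur77-KO 18 h replicate 3 or 0 h replicate 1 or 3, and 5 without BMDM-WT 0 h replicate 1 or 3). Sqle was at 19.4 to 22.7 CPM in BMDM-WT at 18 h against 11.3 to 13.6 CPM (difference -1.15 ± 0.17, adjusted p = 1.5e-05). Tgfbi, a matrix protein induced by TGFβ, reached 282, 275, 269 and 320 CPM in BMDM-WT and 65.2, 56.3, 58.8 and 55.2 CPM in BMDM-Nur77-KO (difference -1.98 ± 0.13, adjusted p = 8.5e-12). Fcgr2b was at 389 to 407 CPM in BMDM-WT and 87.8 to 99.8 CPM in BMDM-Nur77-KO (difference -1.94 ± 0.16). These pairs were close at 0 h, with means of 38.4 and 31.0 CPM for Tgfbi and 85.8 and 78.1 CPM for Fcgr2b. Ccr2 fell further in the knockout, by a difference of -1.69 ± 0.27, from a higher 0 h mean of 86.0 against 47.9 CPM. Mrc1, Cd163, Saa3, C3, Cfb, Hmox1, Plau and Egr2, by contrast, were not called different.

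**Figure D5:**
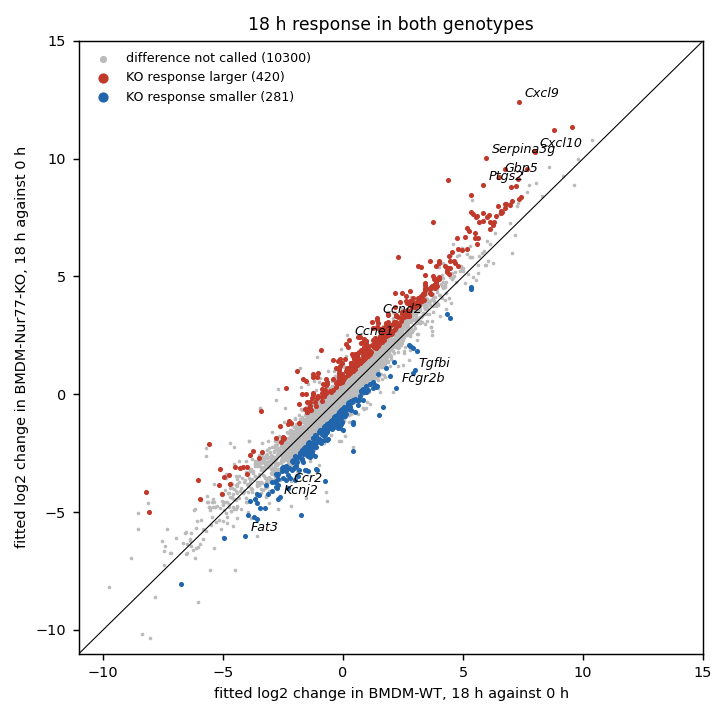
Fitted log2 change between 18 h and 0 h of LPS in BMDM-Nur77-KO (vertical axis) against BMDM-WT (horizontal axis) for the tested genes above 3 reads in at least 1 library of each genotype at 0 h, with the 420 genes of larger and the 281 of smaller response in BMDM-Nur77-KO coloured. Most genes lie along the diagonal, and Ptgs2 and Gbp5 lie above it while Tgfbi and Fcgr2b lie below.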

How the data were processed

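The authors sequenced poly(A) RNA libraries of BMDM-WT and BMDM-Nur77-KO, aligned the reads to mm10 with HISAT2 2.1.0, filtered alignments on mapping quality and counted tags per RefSeq transcript with HOMER without adjustment. The deposited values are estimated counts, not normalised, in multiples of 0.5 (28.6% of the values were not whole), and were rounded here. The strand setting of the counting is not given in the sources used here, so reads of overlapping or antisense genes may be shared.

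Of 42361 transcripts, 93 without a gene name (0.233% to 1.37% of the tags) were left out, and the transcript with the highest mean count stood for each of 25067 genes. Genes with a mean above 1 RPKM in at least 1 of the 8 groups were tested (11279) in 1 edgeR 4.0.16 quasi-likelihood fit (R 4.3.3) of all 32 libraries, with TMM factors, without a replicate term. Counts that sum to 8742362 to 15780926 per library allow 3 reads as the floor. Calls needed a Benjamini-Hochberg adjusted p under 0.05 and a log2 change above 1 (0.58 for the difference of responses). Replicate numbers were not used to pair samples: the deviations of same-numbered BMDM-Nur77-KO 0 h and 18 h libraries correlated by -0.59 to -0.07. Such deviations also followed GC content (Spearman rho 0.62 for 0 h replicate 4 and -0.66 for 18 h replicate 4). The check could therefore not exclude that libraries shared an animal. The scripts were tested on simulated data. Members, gene lists and motifs were chosen with earlier results of these data known. Genes named are the leading and most changed members of each list, those with the largest changes in each comparison and those with the highest RPKM, and further members of the lists given with their values; Trim69, Idh3b and Idh3g were chosen after their values were seen. A few genes that this rule takes are not reported here. The alternatives were library totals only, a GC correction, DESeq2 1.42.0 and its size factors, other filters, summed transcripts, a replicate block, the libraries compared alone and leaving out each library.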

Additional observations from a re-analysis of the deposited data

Results flagged for a closer look

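Among the 177 sets of 4 libraries looked at (a named gene at 0 h or at 18 h in BMDM-Nur77-KO), 24 held a library whose distance from the others exceeded Dixon's limit. Chance gives about 1 in 20 for independent sets, but these sets share libraries and are not independent. Trim69 is counted although it was chosen after its values were seen. At 18 h all 20 such values were those of replicate 4, 11 of them the highest and 9 the lowest of the group. It was the highest for Cxcl9 (1740 CPM), Gbp2 (8873 CPM), Gbp5 (3222 CPM), Cd86 (426 CPM), Cd274 (5971 CPM), Hif1a (481 CPM), Mrc1 (68.1 CPM), Mki67 (81.7 CPM), Tpx2 (397 CPM), Clec9a (16.4 CPM) and Trim69 (52.3 CPM). It was the lowest for Csf1r (548 CPM), Tnf (336 CPM), Ccl5 (3035 CPM), Isg15 (872 CPM), Irf7 (1794 CPM), Ptges (82.0 CPM), Tap1 (469 CPM), Hmox1 (2085 CPM) and Ftl1 (1906 CPM). At 0 h the values were those of replicate 4 for Csf1r (1639 CPM), Ccr2 (68.9 CPM) and Tap1 (43.6 CPM) and of replicate 1 for Tnf (26.4 CPM).

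The response to 18 h of LPS differed between the genotypes, by the test of the difference itself, with 428 genes larger and 283 smaller in BMDM-Nur77-KO. Among the named genes the difference on the log2 scale was positive for Il1b (1.98), Tnf (1.04), Cxcl9 (5.07), Cxcl10 (2.28), Ifit1 (1.29), Isg15 (1.15), Rsad2 (0.93), Irf7 (1.19), Gbp2 (2.39), Gbp5 (2.72), Acod1 (1.78), Ptgs2 (3.03), Cd40 (1.34), Cd86 (1.32), Cd274 (1.01), Ciita (1.99), Mki67 (1.04), Ccne1 (2.06), Tpx2 (1.16), Ccnd2 (1.82), Clic5 (2.43), Cnn3 (3.54), Serpina3f (4.73) and Serpina3g (4.07). The fitted differences of Slamf1 (4.08) and Gbp10 (5.22) rest on 0 h libraries of BMDM-Nur77-KO with at most 1 read and depend on the constant the fit adds. Those of Cxcl9 and Clic5 rest on few reads at 0 h in BMDM-Nur77-KO. The difference was negative for Itgam (-0.66), Ccr2 (-1.69), Sqle (-1.15), Tgfbi (-1.98), Fcgr2b (-1.94), Fat3 (-1.96), Kcnj2 (-1.74) and Zfyve28 (-1.69).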

How the results depend on the processing

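No call of a named gene reversed. Without the limit on the size of the change, 3798 genes were higher and 4008 lower at 18 h than at 0 h, 605 and 455 had a larger and smaller response than in BMDM-WT, and 3935 and 3827 were higher and lower at 18 h than at 5 h. Library totals alone, an alternative added after the data were seen as was the GC correction, gave 3093 lower genes at 18 h against 0 h, and 14 of 188 named genes lost their call. The cause was not tested. Leaving out 1 library at a time gave 1720 to 1759 higher and 1836 to 1873 lower genes against 0 h, 381 to 481 larger and 233 to 330 smaller responses, and 1563 to 1718 higher and 1513 to 1737 lower genes against 5 h. Without 18 h replicate 4, Elfn1, Mylip, Rnf125 and Shmt2 lost their call. DESeq2 called 1782 higher and 1782 lower genes. With a replicate block the counts were 1738 and 1857 against 0 h, 417 and 264 for the difference and 1615 and 1608 against 5 h. Whether the replicate numbers pair the libraries is not known. Genes with at most 3 reads in every library of a group have a bound in place of a fold change. Clic5 at 0 h and Cd163 at 18 h lie just above that floor, so their fitted changes rest on few reads.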
